A study of Homo sapiens with 6 samples.

Results

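The genes described here encode the integrin subunits that bind collagen or laminin. Of 9 genes named for this group, 8 were in the table of 18936 genes: ITGA1, ITGA2, ITGA10 and ITGA11, which encode the collagen-binding alpha subunits, ITGA3, ITGA6 and ITGA7, which encode laminin-binding alpha subunits, and ITGB4, which encodes the beta subunit that joins the alpha 6 chain. ITGA9, whose product binds other matrix proteins such as tenascin, was not analysed here. The members were chosen by what their proteins are known to bind and not by a measured value. RNA was sequenced from UC3 (UM-UC-3), an established line of human bladder carcinoma cells, and from its resistant subline UC3DDP, which the study calls UC3-R. The subline was selected over about a year with rising doses of cisplatin, which crosslinks DNA, and gemcitabine, a nucleoside analogue, with drug-free recovery between exposures. The labels carry only the letters DDP, and whether drug was present when RNA was taken from either line is not given in them or in the sequencing methods. Each line was represented by 3 libraries, and the study says in general that its experiments were repeated independently, without saying of these libraries that they came from separate cultures. The p-values therefore measure the spread of these libraries alone, which may be technical. A single resistant subline was sequenced, so a difference between the lines applies to that subline.

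Integrins are receptors made of an alpha and a beta chain that span the cell membrane and tie the extracellular matrix to the actin or keratin cytoskeleton. The alpha 1, 2, 10 and 11 chains carry an inserted domain that grips collagen, and each pairs with the beta 1 chain, encoded by ITGB1. The alpha 3, 6 and 7 chains lack that domain and bind laminin of the basement membrane, mostly with beta 1, while the pair of alpha 6 and beta 4 anchors epithelial cells in hemidesmosomes. In urothelium the laminin receptors are found on the basal cells next to the basement membrane.

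The 3 UC3 libraries held 19467228 to 20803970 counts each, and the 3 UC3DDP libraries 16757610 to 17254683. In bulk RNA, fewer cells of a type and less RNA per cell cannot be told apart. The fold changes of all genes followed the GC content of their transcripts, with medians from -1.44 in the GC-poorest to 0.771 in the GC-richest decile. Relative to the UC3 mean, the median of the GC-richest 20% of genes lay above that of the GC-poorest 20% by 2.36, 1.69 and 1.84 on the log2 scale in UC3DDP replicates 1, 2 and 3. In the UC3 libraries this gap was -0.0176 to 0.0191, which shows only their spread, since they make up that mean. Each member is therefore given without and with an adjustment for the GC content and length of its transcript. UC3DDP replicate 1 stood apart from its fellows, with a chi-square over its degrees of freedom at 23.3 and 13.8 against replicates 2 and 3, which differed from each other at 3.59 (1 is sampling noise). Of 16 urothelial and epithelial markers, 12 were in the table, and 5 in UC3 and 8 in UC3DDP reached 1 CPM (a gene's count as a share of the library's scaled total, in parts per 1000000). Their summed level was 224 to 233 CPM in UC3 and 351 to 445 CPM in UC3DDP, mostly from KRT18 and KRT8, while the uroplakins UPK1A and UPK2, which mark differentiated urothelium, stayed below 0.5 CPM in both lines. Fibroblast markers summed to 11.5 to 12.5 CPM in UC3 and to 31.0, 18.0 and 16.3 CPM in UC3DDP replicates 1, 2 and 3. Endothelial markers summed to 0.721 to 1.39 CPM in UC3 and to 9.86, 4.65 and 4.44 CPM in UC3DDP. Of 10 leukocyte markers, 3 were in the table, and they summed to 2.55 to 3.21 CPM in UC3 and 640 to 750 CPM in UC3DDP. LCP1 made up most of the UC3DDP sum, at 688 CPM against 0.692 CPM in UC3. CORO1A went from 2.02 CPM in UC3 to 4.40 CPM in UC3DDP, and the monocyte marker CD14 from 0.0996 to 0.276 CPM.

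The collagen-binding genes are recognisable by the codons of a metal-binding site in the inserted domain, which are shown because they mark the group and because they hold the longest stretch of coding sequence that any pair of the genes shares. The capitals are the 5 codons of the metal site, in the reference coding sequences of GENCODE release 44 (GRCh38).
ITGA1 (chr5:52865725-52865751, + strand): GATGGTTCCAACAGTatttacccatgg
ITGA2 (chr5:53048678-53048704, + strand): GATGAATCAAATAGTatttatccttgg
ITGA10 (chr1:145904750-145904776, - strand): GATGGCTCCAACAGCatctacccctgg
ITGA11 (chr15:68358524-68358550, - strand): GATGGCTCCAACAGCatctacccctgg
Over these 27 bases ITGA10 and ITGA11 were identical, ITGA1 matched ITGA11 at 23 bases and ITGA2 at 19. The search for these 5 codons found none in ITGA3, ITGA6 or ITGA7 and a single match in ITGB4, which as a beta subunit has a metal site of its own. The laminin-binding alpha genes are shown by the codons of the motif just inside the membrane, in capitals, where alpha chains meet the beta chain. This motif does not mark the group, since the search found it in ITGA1 and ITGA2 as well.
ITGA3 (chr17:50088228-50088242, + strand, capitals): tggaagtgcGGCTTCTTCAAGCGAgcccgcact
ITGA6 (chr2:172501775-172501789, + strand, capitals): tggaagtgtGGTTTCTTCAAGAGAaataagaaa
ITGA7 (chr12:55685271-55685285, - strand, capitals): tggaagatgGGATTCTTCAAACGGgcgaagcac
The longest coding stretch shared by any of 36 pairs of the 8 members and ITGB1 was 29 bases, between ITGA10 and ITGA11 (tggatggctccaacagcatctacccctgg), and the next were 17 bases. A read within the coding sequence that spans more than these therefore distinguishes these genes from each other. Untranslated exons and other genes were not compared.

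Of the 8 members, 7 passed the filter on low counts, and 4 of these rose in UC3DDP and 0 fell. A gene was said to rise or fall where its adjusted p was under 0.05 and its log2 fold change over 1 in size. Among all 15120 genes tested, 17.6% rose and 23.1% fell by the same call, together 40.7%, so calls were common in this comparison. With the GC and length adjustment 3 members rose and 0 fell, against 14.3% and 13.2% of all genes, together 27.4%. The members that rose both ways were ITGA1, ITGA2 and ITGA11, all collagen-binding, and the one that rose only without the adjustment was ITGA3. The libraries of the lines did not overlap in CPM for 6 of the 7 tested members, and for 83.7% of all genes tested. The median log2 fold change of the 7 was 1.15, or 0.49 with the adjustment, beside a median over all genes of 0.02 and 0.03.

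**Figure D1:**
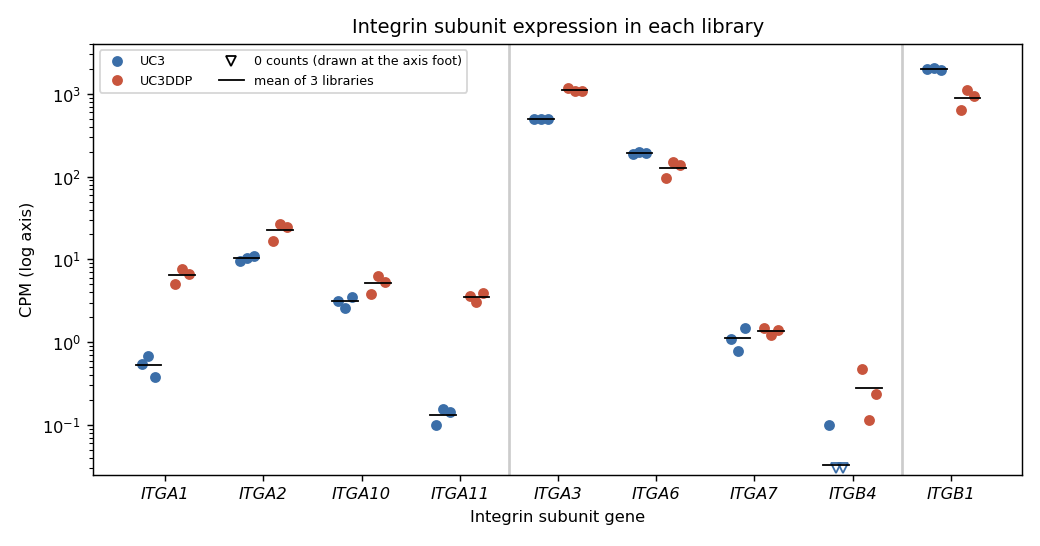
Level of each member and of ITGB1 in every library, in CPM on a log axis; points are libraries, bars are means of 3, and open triangles are libraries with 0 counts. The UC3DDP points of ITGA1 (4.99 to 7.68) and ITGA11 (3.08 to 3.91) lie above the UC3 points, ITGA7 overlaps, and ITGB1 lies lower in UC3DDP.

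ITGA11 encodes the alpha 11 chain, a receptor for fibrillar collagen that is best known from fibroblasts (ENSG00000137809, chromosome 15, 68296532 to 68432163, GRCh38.p13, minus strand). It had 2, 3 and 3 counts in UC3 replicates 1, 2 and 3 and 61, 53 and 66 counts in UC3DDP replicates 1, 2 and 3. These counts correspond to 0.0992, 0.155 and 0.144 CPM in UC3 and 3.62, 3.08 and 3.91 CPM in UC3DDP, so every resistant library was far above every parental one. The mean rose from 0.133 ± 0.0296 to 3.54 ± 0.420 CPM (mean ± SD, n = 3 libraries each). The log2 fold change was 4.67 (SE 0.263, edgeR adjusted p = 6.1e-07), a 25.4-fold difference, the largest of the tested members without the adjustment, and 4.77 with it. It exceeded the fold change of 98.9% of all tested genes. The parental level rests on 8 counts in all, and the ratio of the summed counts was 26.7 with a 95% exact interval of 13.2 to 62.7. Of 8 fibroblast markers in the table, 5 (PDGFRA, PDGFRB, DCN, LUM and COL1A1) were also higher in every UC3DDP than in every UC3 library. COL1A1 had 54, 45 and 47 counts in UC3 and 165, 117 and 110 counts in UC3DDP, high in all resistant libraries. COL1A2, COL3A1 and THY1 were not, with COL3A1 at 10, 10 and 11 counts in UC3 and 58, 2 and 2 in UC3DDP. THY1 went the other way, from 101, 121 and 132 counts in UC3 to 22, 0 and 1 in UC3DDP. Of the 8 markers, 7 were highest in replicate 1 among the resistant libraries. The part of these in the ITGA11 counts was not tested. ITGA11 was also called without UC3DDP replicate 1.

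ITGA1 encodes the alpha 1 chain, which binds collagen IV of basement membranes and fibrillar collagen (ENSG00000213949, chromosome 5, 52787916 to 52959209, plus strand). It had 11, 13 and 8 counts in UC3 and 84, 132 and 114 counts in UC3DDP. In CPM it measured 0.546, 0.672 and 0.384 in UC3 and 4.99, 7.68 and 6.75 in UC3DDP, with UC3DDP replicate 1 the lowest of the resistant libraries and still well above the parental ones. The mean went from 0.534 ± 0.144 to 6.47 ± 1.37 CPM, a log2 fold change of 3.59 (SE 0.254, edgeR adjusted p = 1.8e-06) and 12.1-fold. With the adjustment the log2 fold change was 5.08 (SE 0.170, edgeR adjusted p = 4.5e-09), or 33.9-fold, so ITGA1 then stood above ITGA11 (4.77). The ITGA1 transcript has 38.7% GC, and genes of that GC decile had a median log2 fold change of -1.05, so ITGA1 went opposite to the genes of like composition. The exons of ITGA1 share 499 bases, 2.69% of its exon length in GENCODE, with PELO, a gene of ribosome rescue on the same strand. They also share 571 bases (3.08%) with RPL17P21, a processed pseudogene on the same strand, and 1385 bases with ITGA2-AS1 on the opposite strand, and counts of these were not analysed here. PELO rose by 1.25 (log2), and the ratio of ITGA1 to PELO counts lay between 0.0295 and 0.0504 in the parental and between 0.152 and 0.26 in the resistant libraries, with no overlap.

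ITGA2 encodes the alpha 2 chain, a collagen receptor of epithelial cells and platelets (ENSG00000164171, chromosome 5, 52989340 to 53094779, plus strand). It had 191, 201 and 230 counts in UC3 and 284, 464 and 418 counts in UC3DDP. The corresponding values were 9.48, 10.4 and 11.0 CPM in UC3 and 16.9, 27.0 and 24.8 CPM in UC3DDP, where replicate 1 was again the lowest. The mean rose from 10.3 ± 0.790 to 22.9 ± 5.32 CPM, with a log2 fold change of 1.15 (SE 0.167, edgeR adjusted p = 1.6e-04). This lay just over the fold limit, between 1.00 and 1.33 when single libraries were left out. With the adjustment it was 2.31 (SE 0.0849, edgeR adjusted p = 8.3e-09), and its transcript, at 40.1% GC, falls in the same decile as ITGA1.

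ITGA10 encodes the alpha 10 chain, a collagen receptor best known from cartilage (ENSG00000143127, chromosome 1, 145891208 to 145910111, minus strand). The parental libraries held 64, 50 and 74 counts of it and the resistant ones 64, 108 and 91, or 3.18, 2.58 and 3.55 CPM against 3.80, 6.28 and 5.39 CPM. UC3DDP replicate 1 lay close to the parental libraries and the other two lay higher. The log2 fold change was 0.73 (SE 0.203, edgeR adjusted p = 0.00854), under the fold limit, and 0.33 with the adjustment (edgeR adjusted p = 0.163). ITGA10 was therefore the collagen-binding gene that was not called.

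ITGA3 was the highest of the members in both lines. It encodes the alpha 3 chain, a receptor for the laminins of epithelial basement membranes (ENSG00000005884, chromosome 17, 50055968 to 50090481, plus strand). It measured 492, 494 and 499 CPM in UC3 and 1168.5, 1074.9 and 1079.3 CPM in UC3DDP, so replicates lay close together and the lines were far apart. The mean rose from 495 ± 3.60 to 1107.5 ± 52.8 CPM, a log2 fold change of 1.16 (SE 0.061, edgeR adjusted p = 4.4e-07). The transcript has 61.3% GC, in a decile whose genes had a median log2 fold change of 0.771. With the adjustment ITGA3 stood at 0.49 (SE 0.0402, edgeR adjusted p = 1.6e-06), higher still but under the fold limit.

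ITGA6 encodes the alpha 6 chain, a laminin receptor with beta 1 and the partner of beta 4 in hemidesmosomes (ENSG00000091409, chromosome 2, 172427354 to 172506459, plus strand). It measured 189, 196 and 194 CPM in UC3 and 96.8, 149 and 138 CPM in UC3DDP. All resistant libraries lay below the parental ones, with replicate 1 the lowest. The log2 fold change was -0.60 (SE 0.141, edgeR adjusted p = 0.00351), under the fold limit, and with the adjustment it was 0.09 (edgeR adjusted p = 0.277), on the other side of 0. Genes of its GC decile, with ITGA6 at 42.5%, had a median of -0.731.

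ITGA7 encodes the alpha 7 chain, the main laminin receptor of muscle (ENSG00000135424, chromosome 12, 55684568 to 55716043, minus strand). It had 22, 15 and 31 counts in UC3 and 25, 21 and 24 counts in UC3DDP, and the lines overlapped. The means were 1.12 ± 0.358 and 1.38 ± 0.137 CPM, with a log2 fold change of 0.29 (SE 0.257, edgeR adjusted p = 0.322) and -0.41 with the adjustment (edgeR adjusted p = 0.161). No difference was detectable at this depth.

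ITGB4 encodes the beta 4 chain, whose long cytoplasmic tail links laminin receptors to keratin filaments, and which the study examined as a receptor for fibronectin (ENSG00000132470, chromosome 17, 75721328 to 75757818, plus strand). It had 2, 0 and 0 counts in UC3 and 8, 2 and 4 counts in UC3DDP, too few for the filter. The ratio of the summed counts was 8.29 with a 95% exact interval of 1.90 to 75.2, which covers counting error only. Without the filter the log2 fold change was 2.82 (SE 1.01, edgeR adjusted p = 0.0311) in a test where 17.4% of 18936 genes rose, and 2.28 with the GC and length adjustment as well (edgeR adjusted p = 0.0716), which no longer passed. UC3DDP replicate 1, which held 8 of the 14 resistant counts, was also the library with the highest summed fibroblast, endothelial, smooth muscle and epithelial markers, and the part of these in the ITGB4 counts was not tested. Without that library the ratio was 5.31, and without UC3 replicate 1, which held both parental counts, it was at least 3.68 against a floor of 3 counts over the UC3 libraries. Its alpha partner ITGA6 was at 128 ± 27.6 CPM in UC3DDP and ITGB4 at 0.276 ± 0.183 CPM.

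**Figure D2:**
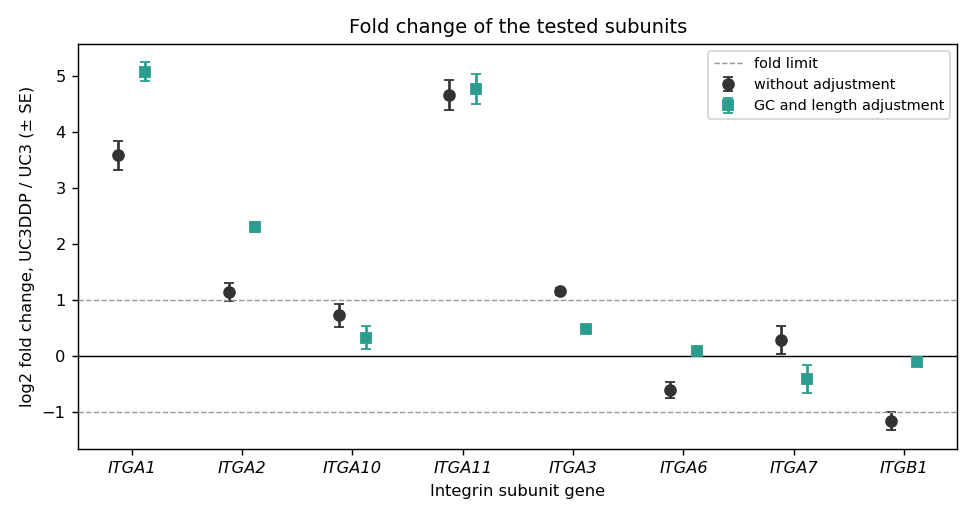
Log2 fold change of UC3DDP over UC3 with its SE for the 7 tested members and ITGB1, without (circles) and with (squares) the GC and length adjustment; dashed lines mark the fold limit. ITGA1, ITGA2 and ITGA11 stay over the limit both ways, ITGA3 moves from 1.16 to 0.49 and ITGB1 from -1.16 to -0.10.

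ITGB1, which encodes the beta 1 chain that pairs with each of the 7 alpha chains, is no member (ENSG00000150093, chromosome 10, 32887273 to 33005792, minus strand). It measured 2002.9, 2034.5 and 1946.6 CPM in UC3 and 641, 1107.0 and 938 CPM in UC3DDP. The resistant libraries were all lower and spread widely, with replicate 1 the lowest. The log2 fold change was -1.16 (SE 0.164, edgeR adjusted p = 1.4e-04), and without UC3DDP replicate 1 it was -0.96, under the fold limit. With the adjustment it was -0.10 (SE 0.0769, edgeR adjusted p = 0.243), so the lower level of ITGB1 was not called once GC content and length were taken into account. The ITGB1 transcript has 39.2% GC and lies in the same decile as ITGA1 and ITGA2, whose genes had a median of -1.05.

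**Figure D3:**
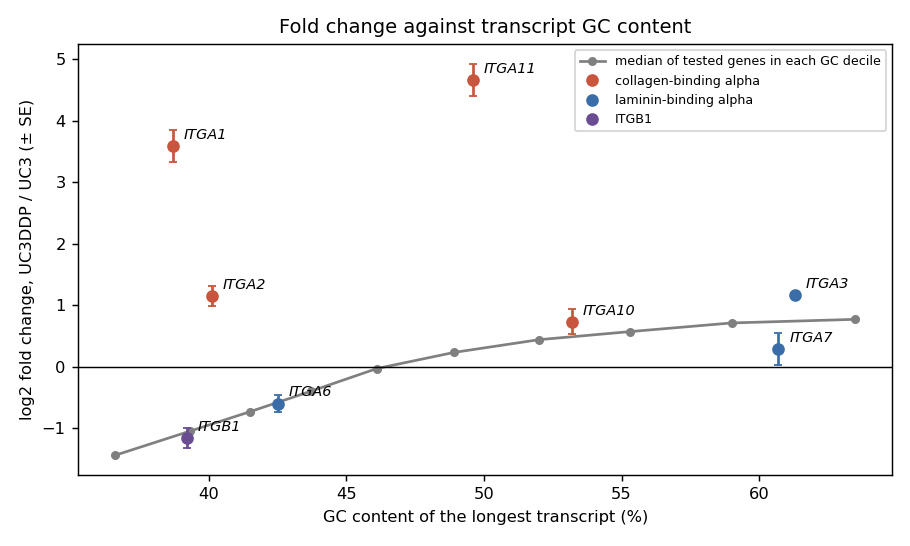
Log2 fold change (± SE) of the tested members and ITGB1 against the GC content of the longest transcript, with the median of all tested genes in each GC decile as the grey line. ITGB1, ITGA6 and ITGA10 lie near the line, while ITGA1, ITGA2 and ITGA11 lie above it.

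Levels of different genes were compared per kilobase of exon (RPKM, here CPM divided by exon length). In UC3 the order was ITGA3 (101 ± 0.736 RPKM), ITGA6 (34.0 ± 0.637), ITGA2 (1.31 ± 0.101), ITGA10 (0.605 ± 0.0953), ITGA7 (0.271 ± 0.0867), ITGA1 (0.0497 ± 0.0134), ITGA11 (0.0130 ± 0.0029) and ITGB4 (0.00561 ± 0.00972), and only the libraries of the last pair overlapped. In UC3DDP ITGA3 (227 ± 10.8 RPKM), ITGA6 (22.5 ± 4.85), ITGA2 (2.92 ± 0.679) and ITGA10 (1.01 ± 0.245) kept their places. ITGA1 (0.603 ± 0.127 RPKM) and ITGA11 (0.347 ± 0.0412) came next in UC3DDP and ITGA7 (0.333 ± 0.0333) after them, with ITGA11 and ITGA7 overlapping. The genes with the steepest rise thus remained at low levels, and in UC3DDP 7.71% of tested genes had a lower mean RPKM than ITGA11 and 13% a lower one than ITGA1, against 0.582% and 1.51% in UC3.

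Within the 7 alpha genes of this group, the laminin-binding ones made up nearly all of the summed RPKM in both lines. Summed over ITGA3, ITGA6 and ITGA7 they measured 136 ± 1.21 RPKM in UC3 and 249 ± 6.08 RPKM in UC3DDP. The 7 genes leave out other alpha subunit genes of the lines. Among those were ITGAV, at 208 CPM in UC3 and 98.3 CPM in UC3DDP, and ITGA5, at 91.1 and 170 CPM. The 4 collagen-binding genes summed to 1.98 ± 0.147 RPKM in UC3 and 4.87 ± 1.03 RPKM in UC3DDP, or 1.44% ± 0.095 and 1.92% ± 0.437 of the 7 alpha genes. ITGA3 went from 73.6% ± 0.291 to 89.1% ± 2.48 of the sum and ITGA6 from 24.7% ± 0.325 to 8.88% ± 2.05, with no overlap between the lines. Within the collagen-binding genes, ITGA1 went from 2.55% ± 0.820 to 12.4% ± 0.292 and ITGA11 from 0.657% ± 0.141 to 7.42% ± 2.13, while ITGA2 remained the largest part at 66.3% ± 2.84 and 59.7% ± 1.48. The ratio of the 7 alpha genes to ITGB1 was 0.254, 0.253 and 0.266 in UC3 and 1.52, 0.850 and 0.998 in UC3DDP. These shares and ratios are of unadjusted values. The GC content was 61.3% for ITGA3, 42.5% for ITGA6 and 39.2% for ITGB1, and the part of the GC trend in them was not tested.

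**Figure D4:**
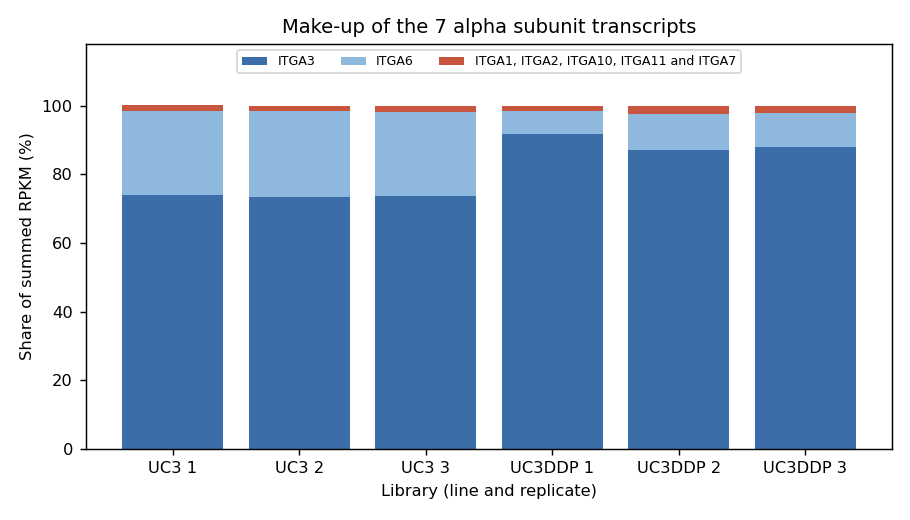
Share of each alpha gene in the summed RPKM of the 7 alpha genes, as stacked bars for the 6 libraries; ITGA1, ITGA2, ITGA10, ITGA11 and ITGA7 are drawn together. ITGA3 fills 73.4% to 74.0% of the UC3 bars and 87.2% to 91.9% of the UC3DDP bars.

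Sequence before the start site was at hand for 5 members (RefSeq, GRCh38.p14). The bases upstream of the 3 genes that rose with and without the adjustment are shown, cut where the gene starts in the deposited table. Capitals mark GGGCGG on either strand, the only motif of those searched that these windows held. In the deposited table ITGA1 and PELO start at the same base, so the bases shown for ITGA1 precede both.
ITGA11 (chr15:68432164-68432413, - strand): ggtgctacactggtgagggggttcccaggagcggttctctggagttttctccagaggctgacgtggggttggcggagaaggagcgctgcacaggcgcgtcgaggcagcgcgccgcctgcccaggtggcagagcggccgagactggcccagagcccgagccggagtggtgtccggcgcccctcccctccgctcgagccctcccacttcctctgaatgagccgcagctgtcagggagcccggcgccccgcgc
ITGA1 (chr5:52787666-52787915, + strand): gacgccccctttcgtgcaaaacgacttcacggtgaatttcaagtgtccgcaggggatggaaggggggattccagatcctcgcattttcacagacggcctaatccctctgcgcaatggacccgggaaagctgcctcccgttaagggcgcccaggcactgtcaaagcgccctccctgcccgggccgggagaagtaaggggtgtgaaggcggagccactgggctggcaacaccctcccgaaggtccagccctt
ITGA2 (chr5:52989102-52989339, + strand): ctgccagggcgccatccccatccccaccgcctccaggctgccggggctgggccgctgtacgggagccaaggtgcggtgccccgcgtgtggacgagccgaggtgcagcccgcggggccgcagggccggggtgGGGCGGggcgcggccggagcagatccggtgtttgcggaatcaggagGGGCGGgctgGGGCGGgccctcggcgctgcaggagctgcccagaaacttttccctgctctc
Over the 250 bases before the start, ITGA11, ITGA1 and ITGA2 held 23, 16 and 26 CpG dinucleotides, beside a median of 11 in 27305 promoters, and 71.2%, 62.0% and 76.4% GC beside a median of 58.0%. ITGA2 held GGGCGG 4 times, of which 3 lie in the bases printed, and 42.3% of all promoters held it at least once. CCAAT, in 33.0% of promoters, TATAAA, in 11.1%, and TGACTCA, in 4.16%, were not found in these 3 windows on either strand. ITGA6 held TATAAA and 8 CpG, and ITGA10 held CCAAT and 1 CpG.

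The members differed in how their neighbours on the chromosome behaved. ITGA1 and ITGA2 lie next to each other, 30130 bases apart, and of 7 other genes tested within 1000000 bases of ITGA1, 4 rose and 0 fell, with a median log2 fold change of 1.15, or 5 and 0 with the adjustment and a median of 1.96. Those that rose without it were PELO (1.25), ITGA2 itself (1.15), a gene named in the table only as ENSG00000247796 (1.38) and FST, which encodes the activin antagonist follistatin. FST had 0 counts in UC3 and 152 counts in UC3DDP, at least 60-fold higher against a floor of 3 counts over the UC3 libraries. MOCS2, of molybdenum cofactor synthesis, stood at 0.79 without and 1.96 with the adjustment. Around ITGA11 the picture was the reverse, since of 17 neighbours tested 12 fell and 0 rose, with a median of -1.58, or 10 and 0 with the adjustment and a median of -1.18. PAQR5, which encodes a membrane progesterone receptor, fell by 3.15 and PIAS1, the gene of a SUMO ligase, fell by 2.33. FEM1B, the nearest tested gene, fell by 1.58 and stood at -0.53 with the adjustment. ITGA11 thus rose within a region whose other tested genes were mostly lower. Near ITGA3, 13 of 37 rose and 2 fell (median 0.80), and near ITGA6, 0 of 14 rose and 6 fell (median -0.90), or 10 and 2 and then 1 and 1 with the adjustment. The window was chosen after the data were seen and neighbours are not independent of each other, so these counts carry no test.

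**Figure D5:**
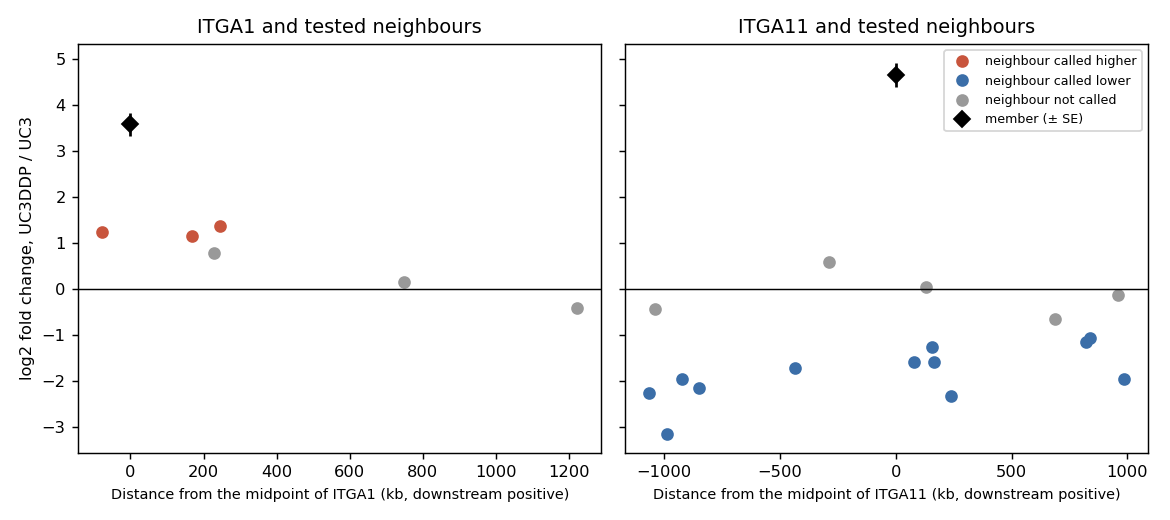
Log2 fold change of the tested genes around ITGA1 (left) and ITGA11 (right) against the distance of their midpoint from that of the member in kb, with the member as a diamond; FST, with 0 counts in UC3, is left out. Around ITGA1 no neighbour was called lower, while 12 of 17 around ITGA11 were.

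The ligands of these receptors were higher more often than lower. Of 24 collagen genes, 16 were tested, and 10 rose and 0 fell (median log2 fold change 1.76), or 9 and 1 with the adjustment (median 1.03), beside the 17.6% and 14.3% of all genes that rose. The fibrillar chain gene COL5A2 went from 2.80 ± 0.877 to 99.2 ± 13.2 CPM (log2 fold change 5.14). COL4A2 and COL4A1, which encode collagen IV of basement membranes, rose by 2.91 and 2.61. The one that fell with the adjustment was COL4A6, at -0.63 without it. Without UC3DDP replicate 1, 2 collagen genes fell, COL6A3 (-2.16, against -0.54 with that library) and COL3A1 (-2.07), which passed the count filter only then, and with the adjustment 2 fell as well. Of 12 laminin chain genes, 9 were tested, and 3 rose and 0 fell both ways. Among them were LAMA1 (1.86) and LAMA3 (1.61), which encode laminin alpha chains, whereas LAMB3, which encodes a beta chain, stood at 0.89 and LAMA5 at 0.05, neither called.

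Partners of the beta 4 chain went both ways. Of 4 hemidesmosome genes tested, 2 rose and 1 fell, and with the adjustment 1 rose and 1 fell. The shares over all tested genes were 17.6% that rose and 23.1% that fell, or 14.3% and 13.2% with the adjustment. Without UC3DDP replicate 1 the gene CD151 was under the fold limit at 0.97, which left 1 that rose. COL17A1, a transmembrane collagen of the hemidesmosome, rose by 2.32 from 2.90 ± 0.0387 to 14.5 ± 0.0585 CPM. DST, whose epithelial form BPAG1e is a hemidesmosome plaque protein, fell by 3.05 from 1588.8 ± 88.9 to 192 ± 64.1 CPM, and by 1.70 with the adjustment. Counts per gene do not separate that form from the other products of DST. PLEC, the plectin gene, stood at 0.02, from 829 ± 8.52 to 840 ± 30.4 CPM. Of 6 tetraspanin genes, which organise laminin-binding integrins in the membrane, 5 rose and 0 fell, but 3 rose without UC3DDP replicate 1, and with the adjustment only CD82 did (2.79 and 2.06). CD9 (1.26) and TSPAN4 (1.24) rose without it and stood at 0.91 and 0.42 with it. CD151, the closest partner of the alpha 3 and alpha 6 chains, rose by 1.05 and stood at 0.25 with the adjustment.

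Among 17 tested genes of integrin activation and tail binding, 2 rose and 4 fell, and with the adjustment 2 rose and 2 fell. Of those that rose, 1 was common to both, since RAP1A, the gene of a small GTPase that activates integrins, went from -0.16 without the adjustment to 1.12 with it. The kindlin genes FERMT1 and FERMT2 both fell by 1.40, but with the adjustment FERMT1 stood at -1.14 and FERMT2 at -0.07. FERMT3, the kindlin of blood cells, rose by 2.45 to 1.30 ± 0.169 CPM, and SHARPIN, whose product restrains integrin activation, rose by 1.10 but stood at 0.25 with the adjustment. TLN1 and TLN2, which encode talins that switch integrins on, stood at 0.41 and 0.76, and ILK, which encodes an adaptor, at 0.26, none called. ITGB1BP2, the gene of melusin, a beta 1 binding protein of muscle, fell by 2.64, to 0.256 ± 0.138 CPM. KRIT1, whose product binds a beta 1 tail adaptor, fell by 2.34 and stood at -0.90 with the adjustment.

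Other receptors for the same ligands also differed, in short lists. Their counts stand beside 17.6% of all tested genes that rose and 23.1% that fell, or 14.3% and 13.2% with the adjustment. Of 4 tested collagen receptors outside the integrin family, 3 rose and 0 fell both ways, with MRC2, a receptor that takes up collagen, at 2.36, DDR1, a receptor kinase, at 1.91 and OSCAR, a receptor of osteoclasts, at 2.28. DDR2 stood at -0.58. Of 5 laminin receptors of other families, 2 rose and 1 fell, and with the adjustment 1 rose and 1 fell, with SDC1 (1.85), a syndecan, higher and BCAM (-2.42), a receptor for laminin alpha 5, lower both ways, and SDC4 at 1.22 and 0.98. Of the other integrin subunit genes 10 were tested, and 3 rose and 1 fell, and with the adjustment 2 rose and 0 fell. ITGAX (5.39) and ITGB3 (3.32) rose both ways, while ITGB2 (1.48) and ITGAV (-1.08) were called only without the adjustment, and ITGAV not without UC3DDP replicate 1 (-0.89). Among 5 tested genes of proteins that bind the alpha 9 chain, 3 rose and 0 fell, or 2 and 0, with FN1, the fibronectin gene, at 3.74 and SPP1, the osteopontin gene, with 3 counts in UC3 and 590 in UC3DDP, called both ways. The ratio of the summed SPP1 counts was 233, with a 95% exact interval of 79.3 to 1133.0. ADAM15 rose by 1.20 and stood at 0.40 with the adjustment.

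The genes with the profile most like that of ITGA3, by the smallest root mean square difference of centred log2 CPM over the 6 libraries among 11645 protein-coding genes, were PFN2 (0.0134), WDR45B (0.0136) and ACLY (0.0188). For ITGA11 they were TTC9 (0.119), GALNT6 (0.131) and CRABP2 (0.149), whose log2 fold changes were 4.22, 4.09 and 3.80. The distances are a description, since all genes share the same 6 libraries of 2 lines.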

How the data were processed

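Groups and replicate numbers were taken from the sample titles. The series text names the line T24 and retinas, and the submitters' processing notes name a mouse build, but the gene identifiers are human and 18895 of 18936 were found in GENCODE release 44. According to the study's methods, NEBNext libraries of TRIzol-extracted RNA were read from both ends. Fastp served for quality control, HISAT2 for alignment (GRCh38) and featureCounts for counting by the authors. The strand setting of the counting step was not given in the sources used here. Without it, reads of a gene and an overlapping antisense gene cannot be told apart. The authors deposited whole-number counts, not normalized, and the lowest gene total was 10. Other deposited columns give the authors' own comparison as a log2 value, a fold ratio, a p-value and an FDR, and were not used. The deposited summed exon length was used.

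All 6 libraries entered a quasi-likelihood test in edgeR 4.0.16 under R 4.3.3 (TMM, filterByExpr with a minimum count of 10, no covariate), with Benjamini-Hochberg adjustment over 15120 genes. Calls used the study's thresholds (adjusted p 0.05, log2 fold change 1). CPM used TMM-scaled library sizes (factors 0.977 to 1.02), and RPKM the deposited exon length. Values are mean ± SD over 3 libraries. Intervals are conditional exact 95% intervals and cover counting error alone, because PCR copies cannot be told from separate molecules here. The GC and length adjustment used offsets from a loess trend in each library (span 0.3) of log2 CPM (prior count 2, relative to the gene's mean) on the GC content of the longest GENCODE transcript and then on exon length. The test was checked on simulated counts.

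Alternatives were DESeq2 1.42.0, limma 3.58.1 (voom), DESeq2 size factors, library totals, no filter, the replicate number as a block, the GC and length adjustment without and with the block, and leaving out each library. The adjustment without UC3DDP replicate 1, and without the filter, was added after the data were seen. The members, lists and tests were chosen with earlier results of these data known. Named genes were the members, ITGB1, up to 3 called genes per related list and direction with the largest fold change and at least 1 CPM, and the nearest profiles. A gene that this rule takes is not reported here. FERMT1, PLEC, LAMB3, LAMA5, TLN1, TLN2, ILK, DDR2, RAP1A, COL4A6, COL6A3, the marker genes and the chromosome neighbours were named after their values were seen. Of 6 marker lists, smooth muscle summed to 4.02 to 4.65 CPM in UC3 and 32.5 to 48.3 CPM in UC3DDP, and retina to 0.288 to 0.517 and 0.533 to 0.640 CPM.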

Additional observations from a re-analysis of the deposited data

How the results depend on the processing

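The number of genes that fell over all genes was 3495, and 1991 with the GC and length adjustment, 1990 with that adjustment and the replicate block, and 2014 with it and without UC3DDP replicate 1. ITGA6 changed sign under the same alternatives, at 0.09, 0.08 and 0.17, and ITGA7 at -0.41, -0.40 and -0.42, none of them called. ITGA3 dropped under the fold limit at 0.49 under all 3, and ITGB1 at -0.10, -0.11 and -0.02. The adjustment removes the part of each fold change that follows GC content and length across genes, whatever its source, and the cause was not tested. ITGA1, ITGA2 and ITGA11 were called under 15 alternatives, at 3.39 to 5.08, 1.00 to 2.35 and 4.49 to 4.77. They were called as well with the adjustment and no filter, at 5.01, 2.24 and 4.80. When single libraries were left out, 4 members rose and 0 fell each time, and all genes gave 2611 to 2885 higher and 3415 to 3891 lower. ITGB1 ranged from -1.35 to -0.96 and ITGB4 from 1.88, a bound, to 3.42 on the log2 scale. DESeq2 gave ITGB4 3.03 (adjusted p = 0.055).

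Same-numbered libraries of the lines did not deviate together (correlations of deviations from the group means of -0.0474, -0.0136 and -0.00889), so the numbers were not taken as pairs. With the replicate block 2660 genes rose and 3514 fell, with 4 members higher and 0 lower. By CPM in place of RPKM, ITGA1 moved from place 5 to place 4 in UC3DDP, above ITGA10. Low counts limit ITGB4, ITGA7 and the parental levels of ITGA1 and ITGA11.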
